A study of Mus musculus with 4 samples.

Results

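Proximal tubule transport and brush border genes are the 46 genes named in a fixed list of endocytic receptors, solute carriers, brush border enzymes and metabolic enzymes of this nephron segment. They were found by the gene name that the array files give to each probe. All 46 were on the array, with 63 of its 39429 probes for transcripts, and 13 of them had more than 1 probe. The cells were primary kidney tubular cells of male mice aged 8 weeks, grown in a renal growth medium and treated at 100 ng/ml with PMA, a phorbol ester and activator of protein kinase C. One group came from wild type and the other from SerpinB2-/- mice, both on the B6.J background, with 2 samples each on an array of their own. SerpinB2-/- mice lack Serpinb2, the gene of plasminogen activator inhibitor-2, whose part in kidney injury and renal ageing the series title gives as its subject. All 4 cultures had PMA, the labels give no time of exposure, and they do not name the deleted part of the gene; the sample titles call the cells PTEC without spelling it out.

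The proximal tubule takes back most of what the glomerulus filters. Its apical membrane is folded into a brush border that carries sodium-coupled carriers for glucose, phosphate and amino acids, peptidases, and the receptors megalin and cubilin, which take up filtered protein. Its basolateral membrane holds the carriers that draw organic anions from the blood. Proximal tubule cells also make glucose and process amino acids, and much of this equipment is known to be lost when they are kept in culture.

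Each array gives a brightness per probe, here in scanner units scaled so that all 4 arrays share a 75th percentile of 2003. A probe counted as detected on an array when the scanner software put over 50% of its spots well above background, and the dimmest such probe lay between 23.0 and 24.8 units. Between 23409 and 24476 probes per array were detected and no spot was saturated. The 2 wild type arrays gave 3207 and 3276 units for Serpinb2. The SerpinB2-/- arrays gave 5.47 and 7.39, not well above background and at least 140-fold lower, as the labels have it. The arrays lay on 1 slide with wild type in the first places, so place on the slide and genotype cannot be told apart. The labels do not say that samples of a group came from separate animals or cultures, so p-values measure only the spread between these arrays. Probes differ in how well they bind, so their brightness does not rank genes against each other.

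Of the 46 genes, 28 were detected on both arrays of at least 1 genotype, which is 60.9%, against 68.3% of the 21364 genes on the array that matched a RefSeq accession. Detection differed between the roles. All 4 genes of the endocytic receptor and all 4 brush border enzymes were detected, as were 5 of 6 amino acid carriers and 7 of 11 metabolic genes. Only 3 of 6 carriers of water and ions, 3 of 6 of sugars and monocarboxylates, 1 of 3 genes of gluconeogenesis and 1 of 6 carriers of organic anions and dicarboxylates were. Of 11 genes that mark proximal tubule cells, 7 were detected (Lrp2, Cubn, Aqp1, Slc34a1, Slc22a6, Slc27a2 and Hnf4a). The other 4, Slc5a2, Slc5a12, Slc22a8 and Slc7a13, were not.

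**Figure D1:**
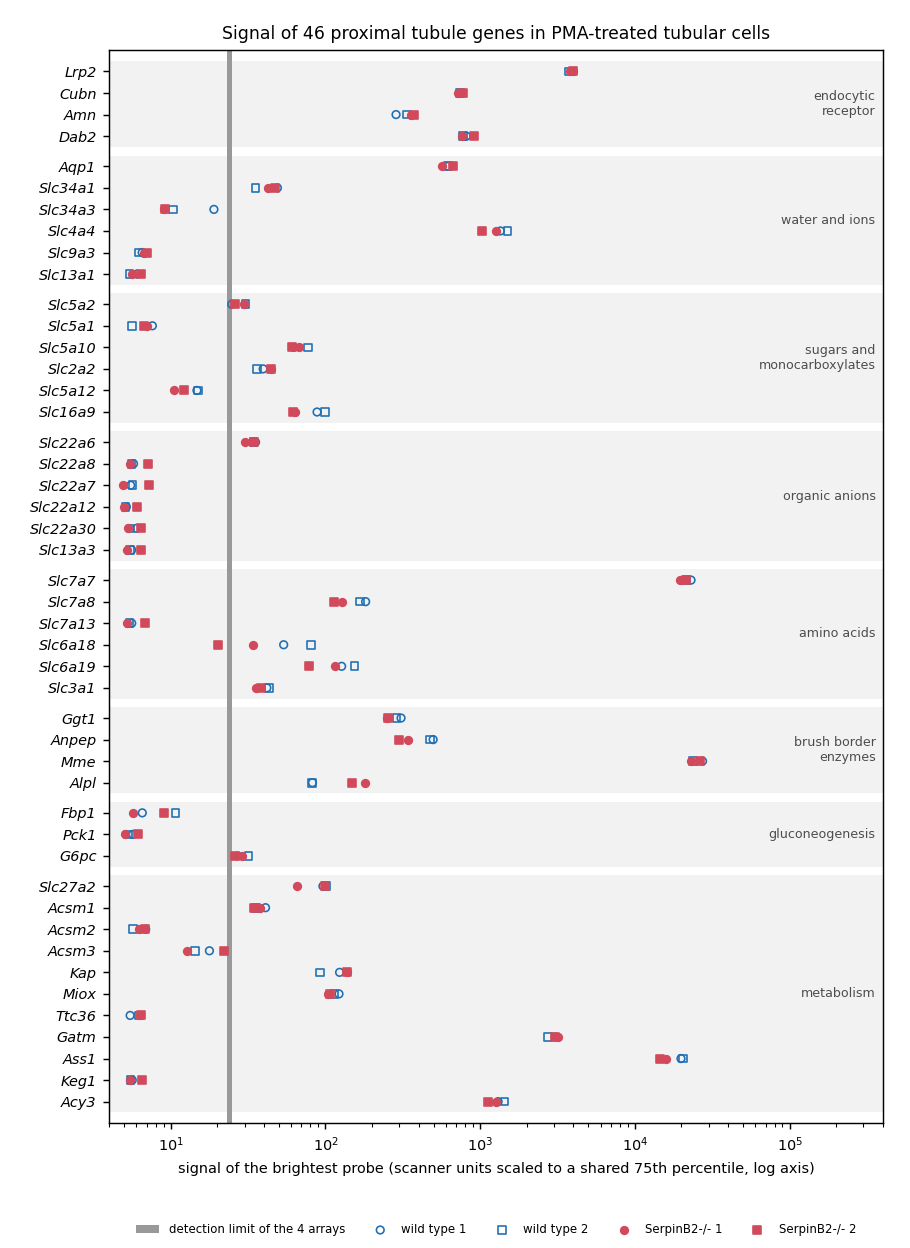
Signal of the brightest probe of each of the 46 genes on each of the 4 arrays (log axis, scanner units scaled to a shared 75th percentile), grouped by role, with the range of the detection limits as a grey bar. Open blue symbols are wild type and filled red symbols SerpinB2-/-. Megalin (Lrp2) lies between 3765 and 4007 units on all 4 arrays, while 5 of 6 organic anion and dicarboxylate carriers lie left of the bar.

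Most of the 18 undetected genes lay far below the limit. For 15 of them none of the spots of the brightest probe was well above background, and 13 were under 10 units on every array. Among the carriers these were Slc5a1, the glucose carrier SGLT1 of the late segment (5.62 to 7.61 units), Slc9a3, the sodium-proton exchanger NHE3, the sulphate carrier Slc13a1 (5.42 to 6.38) and the amino acid carrier Slc7a13 (5.24 to 6.81). In the organic anion group they were the basolateral carrier OAT3 (Slc22a8, 5.44 to 7.17), its relatives Slc22a7 and Slc22a30, the urate carrier Slc22a12 and the dicarboxylate carrier Slc13a3. Pck1, the cytosolic PEPCK of gluconeogenesis, was at 5.07 to 6.11 units, and Acsm2, Ttc36 and Keg1 were as dim. Values this low are set by the scanner software and have no order among themselves.

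The remaining 5 undetected genes were closer to the limit. Slc5a2, the glucose carrier SGLT2 of the early segment, gave 24.8 and 30.4 units in wild type against 29.8 and 25.9 in SerpinB2-/- cells, with 6 of its 15 spots well above background, and was detected on 1 array. The phosphate carrier Slc34a3 reached 19.0 units, the lactate carrier Slc5a12 15.1, the acyl-CoA synthetase Acsm3 22.2 and fructose-1,6-bisphosphatase (Fbp1), an enzyme of gluconeogenesis, 10.73. No fold change is given for any of the 18.

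Among the 28 detected genes, 13 were over 10 times the limit on every array and 5 were under 2 times the limit on every array. Those 5 were the basolateral organic anion carrier OAT1 (Slc22a6), Slc3a1, the heavy chain of the cystine carrier, the glucose carrier GLUT2 (Slc2a2), glucose-6-phosphatase (G6pc) and Acsm1. The sodium-phosphate carrier Slc34a1, a main proximal marker, gave 48.9 and 35.2 units in wild type against 42.3 and 47.5 in SerpinB2-/- cells, with overlapping groups. A second Slc34a1 probe was not detected on any array.

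SerpinB2-/- cells differed from wild type in 5 of the 28 detected genes. Alkaline phosphatase (Alpl) rose, and aminopeptidase N (Anpep), the carriers Slc7a8 and Slc16a9 and argininosuccinate synthetase (Ass1) fell, each by limma with a Benjamini-Hochberg adjusted p under 0.05 over all 18392 genes tested. That is 17.9% of the detected members, while 15.7% of all genes tested passed (6.01% higher, 9.67% lower). With the brightest probe per gene, the share is thus near that of the array as a whole. Counted by probe, 11 of the 35 kept member probes passed, 10 of them lower, against 3858 of all 24174 kept probes. Some of these 11 read the same gene, and those of Slc6a18 were kept through wild type alone. The groups did not overlap for 17 of the 28 (60.7%, 5 higher and 12 lower), against 64.3% of all genes (32.5% higher, 31.9% lower). At an unadjusted p under 0.05 there were 11 of the 28, and 34.2% of all genes. The median change of the 28 was -0.11 on the log2 scale, 19 lying below and 9 above 0, and the median of all genes was 0.01. The members' median absolute change was 0.20, and that of all genes 0.13. None of the 5 calls was kept without wild type replicate 1 or without wild type replicate 2 (9 and 8 members at an unadjusted p under 0.05), where the calls over all genes also dropped from 2884 to 463 and 650. Without SerpinB2-/- replicate 1 there were 7 member calls and without SerpinB2-/- replicate 2 there were 3. With 2 arrays against 2 the smallest exact two-sided p for a single gene would be 0.333, so each call rests on the spread that limma shares across genes.

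**Figure D2:**
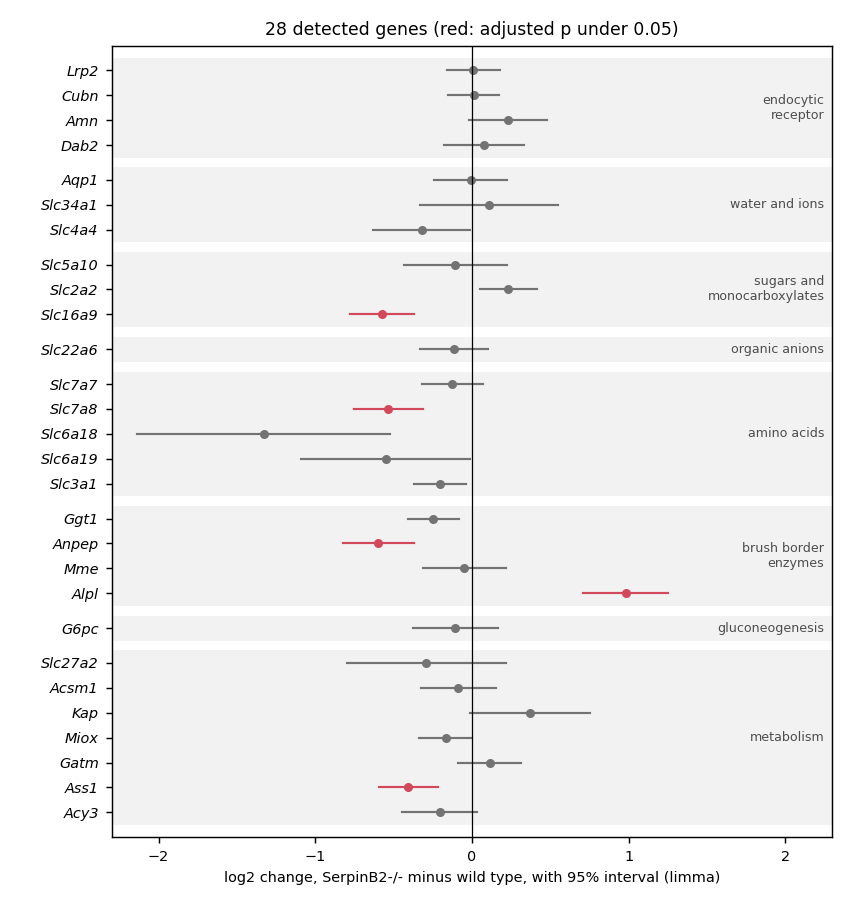
Log2 change of the 28 detected genes, SerpinB2-/- minus wild type, with its 95% interval from limma, grouped by role. Red marks the 5 genes past an adjusted p of 0.05. The intervals of Lrp2, Cubn and Aqp1 cross 0 and are narrow, whereas that of Slc6a18 runs from -2.14 to -0.52.

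At their brightest probes the genes of the endocytic receptor were well above the limit, and Lrp2 and Cubn were close between genotypes. A second Cubn probe, for the same RefSeq transcript (11.7 to 14.3 units), and a second Dab2 probe were not detected on any array. Megalin (Lrp2), the large receptor that drives uptake, gave 4007 and 3765 units in wild type against 3833 and 3991 in SerpinB2-/- cells. The groups overlapped, with a log2 change of 0.01 (95% interval -0.16 to 0.18, adjusted p = 0.924). Cubilin (Cubn), its partner without a membrane-spanning part, gave 740.5 and 742.7 against 723 and 773.8, a change of 0.01 (-0.15 to 0.18). Changes of more than 0.18 in either direction thus lay outside both intervals. Amnionless (Amn), which anchors cubilin in the membrane, was at 285.9 and 335.9 in wild type against 355 and 372.6 in SerpinB2-/- cells. Its groups did not overlap, but its change of 0.23 ± 0.10 (SE, n = 2 per group) did not pass (adjusted p = 0.165). It was 0.37 with median scaling (adjusted p = 0.0364) and 0.11 without wild type replicate 1 (adjusted p = 0.449). The adaptor Dab2, which links the receptor to clathrin, differed by 0.08 ± 0.10.

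Lrp2 had 3 probes, and a dimmer one, at chr2:69344263-69344322 (mm9, minus strand), gave another value. The files assign it to a different transcript from the bright one. This dimmer probe gave 103.7 and 116.9 units in wild type against 66.5 and 72.1 in SerpinB2-/- cells, without overlap, a change of -0.67 ± 0.09 (adjusted p = 0.0141 over all 24174 probes tested). The bright probe, at chr2:69262566-69262625, matches the RefSeq transcript of Lrp2, and the last of the 3 was not detected on any array. When a gene's probes were averaged, Lrp2 as a whole came to -0.33 (adjusted p = 0.0318), so its direction depends on which probe stands for it.

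Water and ion carriers did not pass the threshold. The water channel Aqp1 gave 619.4 and 619.2 units in wild type against 569.9 and 665.8 in SerpinB2-/- cells, so that the SerpinB2-/- arrays lay on either side of wild type. Its change was -0.01 (95% interval -0.24 to 0.23). Slc4a4, the basolateral bicarbonate carrier, was at 1351 and 1499 units against 1260 and 1029. Its groups did not overlap and its change was -0.32 ± 0.12 (adjusted p = 0.135), -0.18 without SerpinB2-/- replicate 2. A second Slc4a4 probe starts 12 bases away and shares most of its sequence, so its change of -0.26 is no separate measurement, and another, dimmer probe gave -0.09. Slc34a1 differed by 0.11 ± 0.17.

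Of the carriers of sugars and monocarboxylates, 1 of 3 detected changed. Slc16a9, a monocarboxylate carrier family member linked to carnitine and urate, gave 88.3 and 99.4 units in wild type against 64.0 and 62.0 in SerpinB2-/- cells. Both SerpinB2-/- values were lower than both wild type values. It fell by 0.57 ± 0.08 on the log2 scale, 1.49-fold (adjusted p = 0.0173). With normexp, another background correction, run with an offset of 50 added to every spot, the fall was 0.28. A second Slc16a9 probe, for the same RefSeq transcript, gave 5.89 to 9.10 units and was not detected on any array. GLUT2 (Slc2a2), the basolateral exit for glucose, was at 39.6 and 36.1 against 44.2 and 44.6 units, without overlap, and its change of 0.23 ± 0.07 did not pass (adjusted p = 0.0881). It was 0.37 with median scaling (adjusted p = 0.0253), 0.12 with normexp (adjusted p = 0.423) and 0.17 without wild type replicate 2 (adjusted p = 0.293). Slc5a10, a sodium-coupled sugar carrier, differed by -0.11 ± 0.13 and overlapped. OAT1 (Slc22a6), the single detected organic anion carrier, gave 35.3 and 34.3 units against 30.1 and 34.4, a change of -0.12 ± 0.08.

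Of 5 detected amino acid carriers 1 passed. All 5 lay below 0 and none of the 5 had overlapping groups, while 64.3% of all genes did not overlap (31.9% lower). Slc7a8 (LAT2), the basolateral exchanger of neutral amino acids, gave 181.8 and 166.8 units in wild type against 127.2 and 114 in SerpinB2-/- cells. It fell by 0.53 ± 0.08, 1.45-fold (adjusted p = 0.0227). With quantile normalization between arrays its change was -0.42 (adjusted p = 0.0608). With normexp it was -0.35 and still passed. Slc7a7, the light chain of the basolateral carrier for cationic amino acids, was bright, at 23070 and 21570 against 19560 and 21410 units, a change of -0.12 ± 0.08 (adjusted p = 0.306). Slc3a1 was at 41.8 and 43.1 against 35.7 and 38.2, a change of -0.20 ± 0.06 (adjusted p = 0.101).

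The apical carriers of neutral amino acids Slc6a18 and Slc6a19 have their probes close together on chromosome 13 (mm9), at 73799346 to 73803795 and 73818718 to 73818777. Slc6a18 (B0AT3) gave 53.7 and 80.6 units in wild type against 34.0 and 20.2 in SerpinB2-/- cells, where 1 of the 2 arrays was above background. Its change of -1.33 ± 0.31 was the largest among the 28 and lay just outside the threshold (adjusted p = 0.0522). With the dim array held at its detection limit it was -1.22. A second Slc6a18 probe, 50.9 and 54.3 against 22.1 and 10.6 units, was not well above background on either SerpinB2-/- array. With those arrays at their detection limits it was at least 2.27-fold lower (adjusted p = 0.0325 over all probes, from the values below the limit). The brighter probe had an adjusted p of 0.0483 in that fit over all probes. Both probes entered the test only through wild type, the group where they are higher, so their p-values and calls are not taken as support. With normexp the change was -0.47 (adjusted p = 0.0218), and Slc6a18 passed in 9 of 17 alternatives with adjusted p from 0.0218 to 0.282. With 1 array left out it ranged from -1.71 to -0.95 and passed only without SerpinB2-/- replicate 1. Slc6a19 (B0AT1), the main carrier of this kind in the early segment, gave 127.2 and 154.2 units against 116.1 and 78.7. Its change of -0.55 ± 0.21 did not pass (adjusted p = 0.141), and it rested on 1 array: without SerpinB2-/- replicate 1 it was -0.83 (adjusted p = 0.0416) and without SerpinB2-/- replicate 2 it was -0.27 (adjusted p = 0.312).

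To show where these carriers were read, the first 30 bases of their 60-base probes are given 5′ to 3′ in lower case, from the array files (mm9, minus strand for each of the 3 lines).
Slc7a8, chr14:55341167-55341196: tatttcttttggattttttaatgtatggcg
Slc6a18, brighter probe, chr13:73799376-73799405: agggagtgagtctggtacctcactcaggat
Slc6a18, dimmer probe, within chr13:73803125-73803795: aagtggtgggagtcattcacatttatggga
The file coordinates of the last probe span 671 bases for 60 bases of sequence, more than 1 unbroken match would, and both Slc6a18 probes lay lower in SerpinB2-/- cells from different places in the transcript. Exon and UTR annotation was not used here.

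Of 4 brush border enzymes 1 rose, 1 fell and 2 did not pass. Alpl, the tissue-nonspecific alkaline phosphatase that removes phosphate at the apical surface, gave 82.4 and 82.2 units in wild type against 179 and 147.4 in SerpinB2-/- cells. The SerpinB2-/- values were both well above the wild type values, and Alpl rose by 0.98 ± 0.11, 1.97-fold (adjusted p = 0.0106). With normexp the rise was 0.63 (adjusted p = 0.00485). Anpep, which trims amino acids from the ends of peptides and is also found on fibroblasts and myeloid cells, was at 496.7 and 474.9 in wild type against 344 and 299.2 in SerpinB2-/- cells. It fell by 0.60 ± 0.09, 1.51-fold (adjusted p = 0.0189), without overlap. Ggt1, the γ-glutamyltransferase that starts glutathione breakdown outside the cell, was at 308 and 287.6 against 248.9 and 253.4 units. Its change of -0.25 ± 0.06 lay outside the threshold (adjusted p = 0.0661) and was -0.28 (adjusted p = 0.0490) with the percentile taken over detected probes, -0.11 (adjusted p = 0.260) with median scaling.

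Neprilysin (Mme), a brush border endopeptidase that fibroblasts and some leukocytes also carry, gave different answers at its 3 probes. The brightest, which stands for the gene by the rule used, gave 27370 and 23850 units in wild type against 23210 and 26300 in SerpinB2-/- cells, overlapping groups with a change of -0.05 ± 0.10 (adjusted p = 0.770). The other probes match RefSeq transcripts of Mme and were far dimmer. One gave 250.8 and 300.1 against 177.5 and 180.7, a change of -0.62 ± 0.10 (adjusted p = 0.0225 over all probes). The other gave 232.6 and 244.5 against 159 and 149.7, a change of -0.63 ± 0.07 (adjusted p = 0.0100 over all probes). With RefSeq probes only, a choice made after the data were seen, Mme passed (adjusted p = 0.0201). With the mean of its probes it passed as well (-0.43, adjusted p = 0.0152).

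The bright Mme probe carries a run of 23 bases, in capitals, that is also in a probe for Tdrd5 on another chromosome; it was the only 1 of the 63 member probes to share 20 or more bases with a probe of another gene, as 2820 of all 39429 probes do. The 30 bases around the run are shown with the first 30 bases of the other 2 Mme probes and of the 2 enzymes that changed, in the files' orientation.
Mme, bright probe, bases 30 to 59, within chr3:63188148-63188625: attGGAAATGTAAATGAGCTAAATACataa
Tdrd5 probe, bases 21 to 50: accGGAAATGTAAATGAGCTAAATACctaa
Mme, RefSeq probe, chr3:63184793-63184822: tttgaacactcttagagcttaaactagagt
Mme, RefSeq probe, chr3:63185750-63185779: aacactgtagctttctgccatcatcatata
Alpl, minus strand, within chr4:137297658-137297716: cctctttttggtgttggttaaaagggaaca
Anpep, minus strand, chr7:86966746-86966775: cacgagatccagaaccaaagaatcaacagg
The Tdrd5 probe read 5.95 to 6.41 units before scaling and was not well above background on any array, while another Tdrd5 probe, without the run, gave 40.8 to 55.6 scaled units. What RNA the bright Mme probe binds was not tested.

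**Figure D3:**
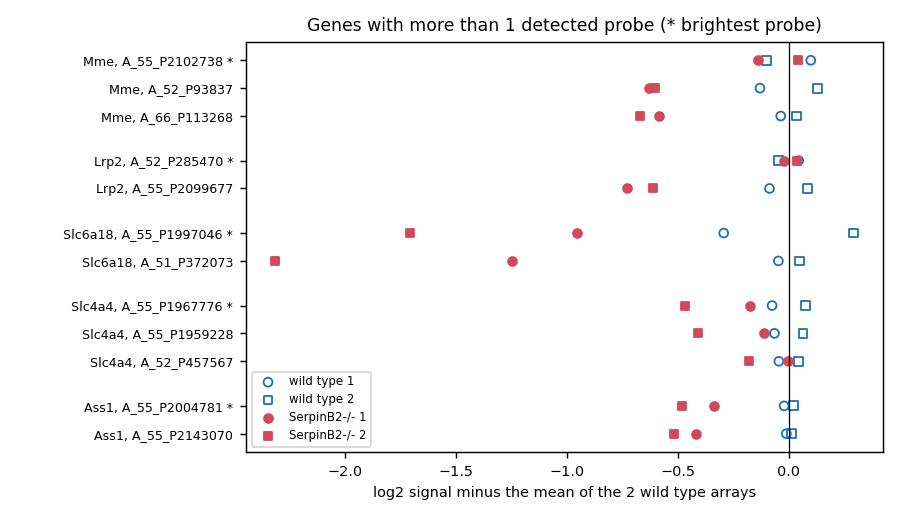
Each detected probe of the 5 members with more than 1, as log2 signal on each array minus the mean of the 2 wild type arrays, with an asterisk at the brightest. The 2 RefSeq probes of Mme lie below 0 in both SerpinB2-/- samples while its brightest probe lies around 0, and the 2 Lrp2 probes part in the same way. Both probes of Slc6a18 and both of Ass1 lie below 0 in both SerpinB2-/- samples, where 1 of the Slc6a18 probes is not above background.

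Among metabolic genes, 1 of 7 detected changed. Ass1, which joins citrulline and aspartate on the way to arginine and is expressed in other cell types too, gave 19870 and 20450 units in wild type against 15970 and 14460 in SerpinB2-/- cells. It fell by 0.41 ± 0.07, 1.33-fold (adjusted p = 0.0289), and its second probe by 0.47 (adjusted p = 0.0165 over all probes). With median scaling its change was -0.27 (adjusted p = 0.0605). Asl, the next enzyme of that path, was at -0.23 ± 0.06 and did not pass (adjusted p = 0.0588). Gatm, the first enzyme of creatine synthesis, was bright at 3053 and 2739 against 3202 and 3059 units, a change of 0.11 ± 0.08. Acy3, an aminoacylase, differed by -0.20 ± 0.09, Miox, which opens the ring of inositol, by -0.17 ± 0.07 and Acsm1 by -0.09 ± 0.09. The fatty acid carrier and acyl-CoA synthetase Slc27a2 differed by -0.29 ± 0.20, carried by 1 array: without SerpinB2-/- replicate 1 it was 0.00086 (adjusted p = 0.996) and without SerpinB2-/- replicate 2 it was -0.58 (adjusted p = 0.0332). Kap, an androgen-regulated kidney transcript, was at 123.4 and 91.9 against 137.5 and 137.8 units, without overlap, and its 0.37 ± 0.15 did not pass (adjusted p = 0.154). Leaving out wild type replicate 1 gave 0.58 (adjusted p = 0.0539), and leaving out wild type replicate 2 gave 0.16 (adjusted p = 0.313).

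Slc16a9 and Ass1 were read by these probes, given by their first 30 bases (mm9, plus strand).
Slc16a9, chr10:69748406-69748435: caatgcaataatggggctccaagcacatga
Ass1, brighter probe, chr2:31376068-31376097: cccccacagcttttgttccctggtccccta
Ass1, dimmer probe, chr2:31375998-31376027: tgttgtgataaatttgtaattgtagcttgt
The Ass1 probes lie side by side without overlapping, so the fall was read from different bases. G6pc, the last enzyme of gluconeogenesis and the only 1 of 3 detected, gave 27.1 and 31.8 units in wild type. It was not well above background on either SerpinB2-/- array (28.7 and 25.9 units). The values overlapped, with an interval of the change from -0.38 to 0.16 (adjusted p = 0.517), so no direction is given.

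Other genes of the proximal tubule were read from 6 further lists. Their counts stand beside 6.01% higher and 9.67% lower over all genes tested. Of the 9 detected transcription factors reported here 1 rose and none fell. Hnf4a, the nuclear receptor that maintains the proximal programme, was at 456.3 and 410.7 units in wild type against 613.3 and 669.5 in SerpinB2-/- cells, a rise of 0.57 ± 0.08 (adjusted p = 0.0194). Of 13 genes of brush border scaffold and structure 3 fell and none rose. They were Pdzk1ip1, a membrane partner of the scaffold PDZK1 (-0.69 ± 0.12), the actin bundler Espn (-0.60 ± 0.06) and Ush1c (-0.33 ± 0.06), which links the tips of microvilli. Of 12 genes of the endocytic machinery beside megalin 0 passed, and their median of -0.05 lay near that of all genes.

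Among 18 detected carriers outside the list of 46, 3 fell and none rose, where 15.7% of all genes passed in either direction. Abcc2 (MRP2), the apical pump for conjugates, gave 108.3 and 136.2 units against 53.9 and 39.7 and fell by 1.39 ± 0.19 (adjusted p = 0.0159). The basolateral sulphate carrier Slc26a1 fell by 1.25 ± 0.15 and the sodium pump subunit Atp1b1, which is not particular to the proximal tubule, by 0.45 ± 0.06. Of 7 other brush border enzymes 2 rose and none fell. The folate hydrolase Folh1 rose by 2.58 ± 0.17, and Enpep, the aminopeptidase A that cuts angiotensin, gave 437.8 and 468.3 against 825.5 and 905.5 units and rose by 0.93 ± 0.08 (adjusted p = 0.00757). Of 18 genes of gluconeogenesis and amino acid metabolism 2 fell, Fah of tyrosine breakdown by 0.45 ± 0.06 and Ldhb by 0.36 ± 0.08. Among ectoenzymes past the threshold at their brightest probe, Alpl, Enpep and Folh1 were thus higher while Anpep was lower in the same samples. Both RefSeq probes of Mme were lower too (-0.62 and -0.63), but do not stand for the gene by the rule used. Ggt1, Ace and Ggt6 lay lower without overlap and did not pass.

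**Figure D4:**
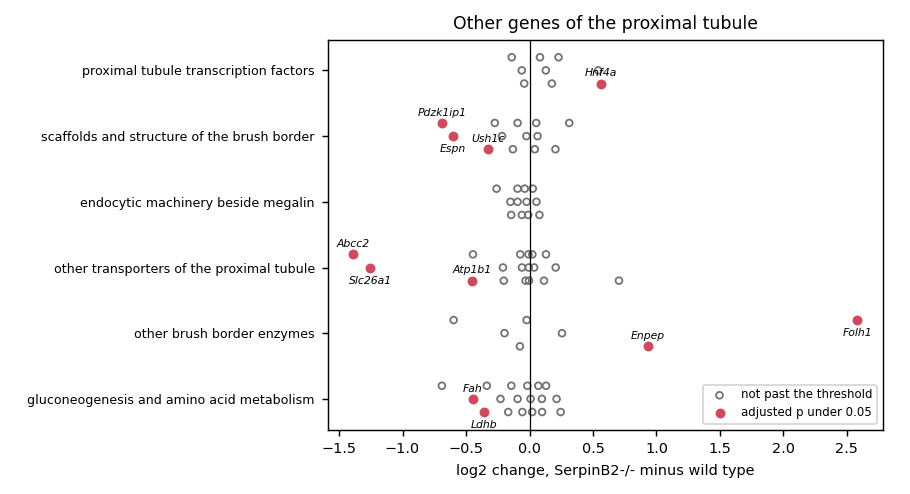
Log2 change, SerpinB2-/- minus wild type, of the detected and reported genes in the 6 further lists of proximal tubule genes. Filled red points passed an adjusted p of 0.05 and are named; open grey points did not. Folh1 at 2.58 and Enpep at 0.93 lie to the right, and Abcc2 at -1.39 and Slc26a1 at -1.25 to the left.

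Marker lists of other cells were read in the same comparison, in which 6.01% of all genes were higher and 9.67% lower. Each sum is weighted toward the brightest probes of its list. Detected genes of the loop, distal tubule and collecting duct summed to 2066 and 2097 units in wild type against 1270 and 1332 in SerpinB2-/- cells, with 4 of 9 lower and none higher. Of 22 such genes 13 were not detected, among them the defining Umod, Slc12a1, Slc12a3, Scnn1b and Scnn1g. Urothelial and squamous genes summed to 53370 and 55850 against 32010 and 32700, with 4 of 8 lower, and the uroplakins Upk1b, Upk2 and Upk3a were not detected. Most of that sum is Krt7 (25577 and 27100 against 14373 and 15416) and Krt19 (21615 and 22851 against 13354 and 12777). These keratins, Ivl and Sfn were the lower genes, while Krt5, Krt14, Trp63 and Upk1a did not pass. The sums of endothelial genes (16460 and 15940 against 9196 and 11580; 10 of 11 lower) and leukocyte genes (27510 and 25480 against 22010 and 21260; 8 of 14 lower) were lower too. Fibroblast and pericyte genes summed to 615300 and 507500 against 644000 and 728400, with 2 of 11 higher. Podocyte genes summed to 6218 and 5577 against 6661 and 8094, with 1 of 5 higher and 1 lower.

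Injury markers of the tubule were detected for all 11 genes, with 1 higher and 2 lower and sums of 883800 and 892200 against 788700 and 829100. Spp1 was higher (0.32 ± 0.07), and Lcn2 (-1.67 ± 0.13) and Krt8 (-0.29 ± 0.06) were lower, while Havcr1 did not pass (0.12 ± 0.07). The 11 proximal markers had Hnf4a as the single call. The summed signal of the 7 detected proximal markers was 6004 and 5708 units in wild type against 5878 and 6281 in SerpinB2-/- cells, overlapping. Most of that sum is the bright Lrp2 probe, and the other 6 summed to 1997 and 1943 against 2045 and 2290, which did not overlap. Hnf4a, at 456.3 and 410.7 against 613.3 and 669.5 units, is among those 6. It was the only one of the 7 whose groups did not overlap, so the sum does not show a rise of the other markers. The 28 detected members summed to 84470 and 79720 against 72420 and 75690. Without the bright Mme probe, whose target was not tested, the other 27 summed to 57090 and 55870 against 49220 and 49380. Most of that sum, and of its fall, lies in 2 genes. They were Slc7a7, at 23070 and 21570 against 19560 and 21410, and Ass1, at 19870 and 20450 against 15970 and 14460. In RNA of whole cultures, fewer cells of a type and less RNA per cell cannot be told apart, and the part of these marker lists in the values of Anpep, Mme, Ass1, Slc7a8, Slc16a9 and Alpl was not tested.

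**Figure D5:**
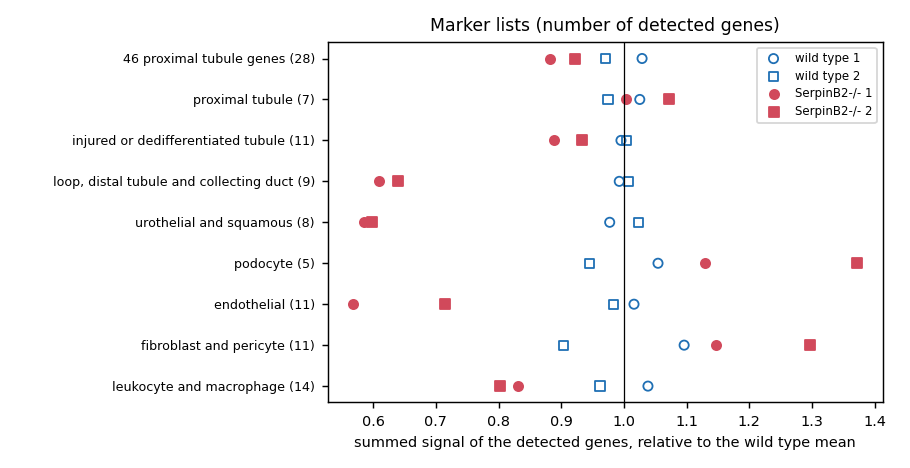
Summed signal of the detected genes of each marker list on each array, relative to the mean of the 2 wild type arrays. One of the SerpinB2-/- values of the 7 proximal markers, 5878 units, falls between the wild type values (the sum is mostly Lrp2). All SerpinB2-/- values of the distal, urothelial, endothelial, leukocyte and injury lists lie below both wild type values. So do those of the 28 detected members of the list of 46 (72420 and 75690 against 84470 and 79720 units). Those of the fibroblast and podocyte lists lie above both.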

How the data were processed

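The members, role groups and marker lists were chosen with earlier results of these data known. Cy3-labelled cRNA from 150 ng of total RNA of 4 samples was read on one-colour arrays. The deposited intensity of each spot was made by the authors with Agilent Feature Extraction 10.7.3.1, per the file headers: background subtracted, spatial and multiplicative trends removed, dim spots given surrogates. The authors' table holds the same arrays as linear whole-number intensity whose 75th percentile is 1500 and whose lowest value is 4, within 5% of 1 factor per array for 93.5% to 94.7% of detected probes. How it was normalized is not given in the sources used here, and it served as an alternative.

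Control spots and outlier spots were left out, the spots of a probe (4 as printed) averaged as log2, and the 75th percentile of each array subtracted. A probe was kept where, in 1 genotype or both, over 50% of its spots were well above background on each array. Each gene was represented by its brightest kept probe. Probe names were matched to RefSeq (GRCm38.p6) by accession for 28264 probes. Genotypes were tested in R 4.3.3 using limma 3.58.1 (lmFit and eBayes), with Benjamini-Hochberg adjustment over 18392 genes. On simulated data, with a spread drawn from the fit itself, 50 of 18392 genes were changed 4-fold, 100 2-fold and 50 1.41-fold. The test recovered 98%, 86% and 20% of these. In the real comparison 15.7% of genes passed, a far larger share than was changed in the simulation, so these recoveries do not carry over to it. Probe positions are the files' mm9; exon and protein annotation was not used here, so only 30 bases of a probe are shown. Every member is named, with all 4 signals for those past the threshold, those with a bound or discordant probes, and the defining markers. From each further list up to 4 members past the threshold are named; 2 of the 11 detected transcription factors are not reported here. Alternatives were other background corrections, scalings, filters, probe choices, variance models, a replicate block, and each array left out.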

Additional observations from a re-analysis of the deposited data

How the results depend on the processing

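With 2 arrays per group, precision is limited by their number, and for dim probes by the signal over background. The count of all genes past the threshold was 5583 with median scaling (where all genes had a median of 0.14), 3 with dim probes kept and 0 without moderation (4442 at an unadjusted p under 0.05), and 463 to 1424 with 1 array left out. Member calls were 3 higher with median scaling, 7 lower with the mean of probes, and 0 with dim probes kept (9 at an unadjusted p under 0.05) or without moderation (6); leaving out 1 array gave 0 to 1 higher and 0 to 6 lower. The members' median was -0.0482 with normexp, -0.0263 with quantile normalization, 0.0244 with median scaling, -0.15 with the 75th percentile over detected probes, 0.0113 with dim probes kept (46 genes), -0.15 with the mean of probes, and -0.14 to -0.10 with 1 array left out. Less the median of all genes it was -0.12 as reported, -0.06 with normexp, -0.04 with quantile normalization and -0.02 with dim probes kept. Of the calls, 38.3% were higher; this was 77.7% with median scaling and 47.0% with quantile normalization. Lrp2 turned to -0.33 with the mean of its probes. Over the 28 members and up to 18 alternatives, 25 results lost the threshold and 16 gained it, each with its sign unchanged. In 32 of 502, over 12 genes, the sign differed, and 1 of the 32, the Lrp2 value above, was past the threshold. The number of members detected was 26 to 29 under every detection rule tried and with any 1 array left out. The replicate number as a block gave 2143 calls, 6 of them members, the added one being Slc6a18 (adjusted p = 0.0312); the labels do not say what the number marks, and the pairing check gave a correlation of 0.26 across genes from 2 pairs.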
